A study of Homo sapiens with 6 samples.

Results

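The genes of cholesterol and fatty acid synthesis were followed in T24, a cell line from human bladder cancer, after siRNAs against the circular RNA circ235. The members were chosen by name: 34 genes of the mevalonate and sterol pathway, of fatty acid synthesis and desaturation, and of their SREBP regulators, out of 58288 genes in the table. All 34 passed the filter on low counts and were tested among 14415 genes. Against the control siRNA, si-circ235-2 left 8 of them higher and 6 lower (15.7% of all genes tested were called in each direction), while 1 gene, INSIG1, was higher with si-circ235-1 (2.24% of all genes). The genes that moved with si-circ235-2 went in opposite directions within the same pathway. HMGCS1, LSS, INSIG1, LPIN1 and ACACA were more than doubled, and MVD, PMVK, EBP and TM7SF2 fell to less than 0.5 of the control level. Of these, LSS, LPIN1, MVD, PMVK and TM7SF2 were no longer called when the first control library was left out. LPIN1, MVD and TM7SF2 were not called once a trend over transcript length and base composition was removed. The higher members had a longer median transcript than the lower ones, as over all genes called with si-circ235-2.

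Cells build cholesterol from acetyl-CoA, first through mevalonate to the isoprenoid chain squalene, and then through lanosterol by trimming the sterol rings. Fatty acids are built from the same acetyl-CoA, which ACLY supplies from citrate, ACACA carboxylates to malonyl-CoA and FASN links into a chain, before elongases and desaturases modify the product. The transcription factors encoded by SREBF1 and SREBF2 switch these genes on: they are held in the endoplasmic reticulum with SCAP by the INSIG proteins when sterols are plentiful, and are cleaved in the Golgi and sent to the nucleus when sterols fall. INSIG1 is itself a known target of these factors, and tumour cells are known to draw on both routes for membrane growth.

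The 6 libraries came from T24 cells transfected with a control siRNA (labelled siControl, here NC), siRNA1 or siRNA2, taken here by their numbers to be the study's si-circ235-1 and si-circ235-2, with 2 biological replicates of each. All cells belonged to this 1 line and carried no other treatment in the labels. Each siRNA is directed at the joining site of circ235, a circle formed from exons of CCNY. RNA was enriched with oligo dT beads, so the circle, which has no poly(A) tail, has no value here and the knockdown could not be checked. Reads of CCNY, the linear host gene, differed from NC by 0.20 on the log2 scale (SE 0.18, adjusted p = 0.53, edgeR) with si-circ235-1 and by -0.08 (SE 0.18, adjusted p = 0.77, edgeR) with si-circ235-2.

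The promoters of part of these genes carry short motifs through which sterol genes are known to be read. They are shown here for some of the called members that had a match. RefSeq promoter windows (GRCh38.p14, 250 bases before to 50 after the start of each gene) were found for 30 of the 34 members. Each line here gives a short stretch of such a window around a motif, printed 5′ to 3′ along the gene's strand with the motif in capitals. The first is the only match to the sterol regulatory element TCACNCCAC, which starts 133 bases before the start of SREBF2. The others hold CCAAT, the box bound by NF-Y, printed as ATTGG where it lies on the opposite strand, or the E-box CACGTG.
SREBF2, sterol regulatory element, chr22:41832962-41832989, plus strand: tgacgcgccaTCACCCCACgcaccgctt
INSIG1, NF-Y box, chr7:155297698-155297725, plus strand: ccggcctcccATTGGttgcggccgcctc
INSIG1, E-box, chr7:155297813-155297840, plus strand: cgggcaggctCACGTGatgcgggccccg
ACACA, NF-Y box, chr17:37299905-37299932, minus strand: cagtctgataATTGGtattatttgtttt
LSS, NF-Y box, chr21:46228907-46228934, minus strand: cggcgctctgATTGGttgcgtgggcgtc
MVD, NF-Y box, chr16:88663159-88663186, minus strand: ctcgcacgggCCAATcctgtggtagcgc
EBP, NF-Y box, chrX:48521728-48521755, plus strand: gagagtgtctATTGGttgggagcggcac

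Each motif was searched on both strands, and the motifs did not overlap one another except for CCAAT boxes on opposite strands in NSDHL. CCAAT was in 19 of the 30 member windows (63.3%), against 34.6% of 35116 RefSeq windows of the same length. CACGTG was in 5 (16.7% against 7.26%) and TCACNCCAC in 1 (3.33% against 1.13%). CCAAT stood in the windows of genes that rose and of genes that fell: with si-circ235-2 it was in 6 of the 8 higher members, 5 of the 6 lower members and 8 of the 16 others with a window. CACGTG was in 3 of the 8 higher members (INSIG1, LSS and ELOVL5), 0 of the 6 lower and 2 of the 16 others. HMGCS1, LPIN1 and PMVK, which were also called, had a window but no match to any of these motifs. These are matches of letters in 1 window per gene, and other start sites, such as those of ACACA, were not searched.

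The libraries held 15373992 to 19912893 counts. Replicates differed by far more than counting error (chi-square divided by its degrees of freedom, 21.7 to 33.3), so the spread between replicates sets the precision. The keratins KRT7, KRT8 and KRT18 were at 619 to 2307 CPM (counts scaled to library size with TMM factors), as in an epithelial line, although KRT19 was at or near 0. The 13 markers of leukocytes, endothelium, fibroblasts, hepatocytes and adipocytes summed to 1.84 to 4.41 CPM in each library, and PTPRC, CD3E, ALB and ADIPOQ were at 0 in all. Fewer cells and less RNA per cell cannot be told apart in such bulk libraries. Within NC, the replicates differed along transcript length (Spearman's rho of replicate 2 over replicate 1 with length, 0.31 across 14386 genes and 0.55 across the members). The same values were 0.36 and 0.44 within si-circ235-2, and -0.04 and -0.24 within si-circ235-1. With the share of G and C bases (GC content), rho across the 14386 genes was -0.35 within NC. It was -0.34 within si-circ235-1 and -0.44 within si-circ235-2.

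In NC, levels per kilobase of the longest transcript differed widely between the members. MVD, which makes isopentenyl diphosphate at the end of the mevalonate steps, was highest at 159 ± 64.3 CPM per kb (SD, n = 2). EBP, the sterol isomerase, followed at 106 ± 28.5 CPM per kb, and their ranges overlapped. A second tier of DHCR7 (52.0 ± 3.07), NSDHL (46.5 ± 10.1), FDFT1 (45.2 ± 1.44), PMVK (42.5 ± 13.4) and FASN (41.3 ± 3.08 CPM per kb) followed, each with a range that overlapped that of NSDHL or PMVK. At the bottom stood ELOVL6 (1.05 ± 0.34), ACACA (0.73 ± 0.26) and CYP51A1 (0.18 ± 0.12 CPM per kb). CYP51A1, the lanosterol demethylase, had only 2 to 44 counts in a library, and 83.2% of its exonic bases overlap other annotated genes. ACAT2 shares 52.3% of its exonic bases with genes on the opposite strand. The genes that overlap CYP51A1 lie on both strands, so strand information would settle only part of its reads. For ACAT2, reads of the overlap cannot be assigned without strand information, and HSD17B7 has a near-identical pseudogene. The values of these genes are therefore uncertain. Smaller overlaps with genes on the opposite strand were in FDPS (18.6%), HMGCS1 (15%) and IDI1 (14.8%).

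Genes were called where the adjusted p of edgeR's quasi-likelihood test was under 0.05. With si-circ235-1, 1 of the 34 members was called higher (2.94%, against 2.24% of all genes tested) and 0 lower (against 3.64%). At an unadjusted p under 0.05 there were 3 higher and 6 lower, where 3644 of all 14415 genes tested passed in either direction. DESeq2 called 3 members higher and 1 lower, and 714 and 805 of all 14415 genes. With si-circ235-2, 8 members were called higher (23.5%, against 15.7% of all genes) and 6 lower (17.6%, against 15.7%). The median log2 fold change of the members was 0.03 with si-circ235-1 and 0.11 with si-circ235-2, beside -0.03 and -0.00 over all genes. The shares are of the same order as those of all genes, and nothing particular to lipid genes is read from them. Both comparisons share the NC libraries. Called or not, 14 members were above and 10 below both NC libraries in both si-circ235-2 libraries. With si-circ235-1 these were 7 and 8. The share over all genes was not counted, so a lack of overlap given for single genes adds no support to their calls.

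**Figure D1:**
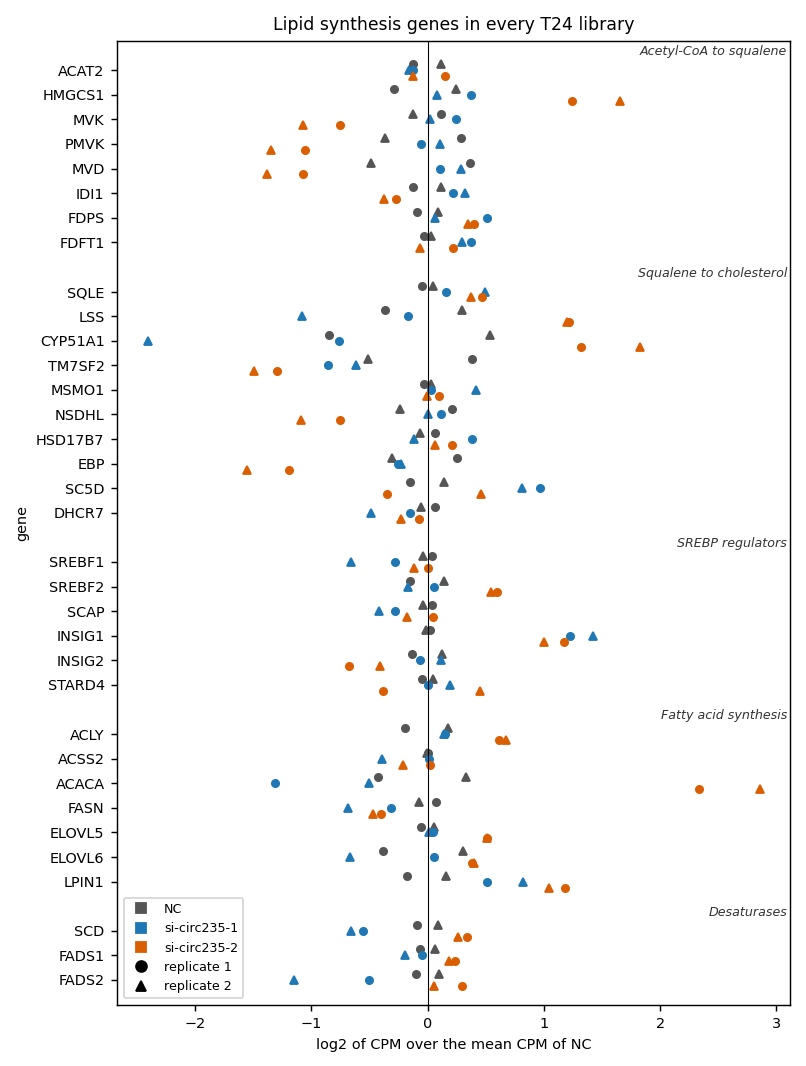
Each point is 1 library, placed by the log2 of its CPM over the mean CPM of NC for the gene named at left, with colour for the siRNA and shape for the replicate number. INSIG1 lies to the right with both siRNAs, while ACACA, HMGCS1 and LSS lie to the right and MVD, PMVK, MVK, EBP, NSDHL and TM7SF2 to the left with si-circ235-2.

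The SREBP regulators included the member that was called with each siRNA. INSIG1 (chr7:155297776-155310235, plus strand), which retains the SREBP-SCAP complex in the endoplasmic reticulum, was at 26.9 and 26.3 CPM in NC, 62.2 and 71.2 CPM with si-circ235-1, and 59.8 and 53.3 CPM with si-circ235-2. All siRNA libraries lay above both NC libraries. The rise was 2.51-fold with si-circ235-1 (log2 1.33, SE 0.19, adjusted p = 0.0075, edgeR) and 2.13-fold with si-circ235-2 (log2 1.09, SE 0.19, adjusted p = 0.0033, edgeR). Between the siRNAs the difference was -0.24 on the log2 scale, with a 95% interval of -0.64 to 0.17 (adjusted p = 0.32, edgeR). The call with si-circ235-1 was lost without NC replicate 1 (log2 1.34, adjusted p = 0.055) and without si-circ235-1 replicate 2 (log2 1.23, adjusted p = 0.14), while the size of the change hardly moved. Once a smooth trend over transcript length and base composition (GC content) was removed from each library, INSIG1 was lower with si-circ235-2 than with si-circ235-1 with a difference of -0.54 (adjusted p = 0.015, edgeR).

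SREBF2, the SREBP gene that mainly serves the sterol branch and holds the sterol regulatory element printed for it, was at 117 and 143 CPM in NC, 135 and 115 CPM with si-circ235-1, and 197 and 190 CPM with si-circ235-2. The si-circ235-2 libraries lay above the other 4, and SREBF2 rose by 0.57 on the log2 scale (SE 0.19, adjusted p = 0.039, edgeR). SREBF1, which mainly serves fatty acid synthesis, was at 141 and 134 CPM in NC, 113 and 87.1 CPM with si-circ235-1, and 137 and 126 CPM with si-circ235-2. Its difference from NC was -0.46 with si-circ235-1 (SE 0.19, adjusted p = 0.16) and -0.06 with si-circ235-2 (SE 0.19, adjusted p = 0.84), and neither was called. The SREBF2 call was lost with the 2 conditions alone, with no low-count filter, with the length and GC trend taken out, and in 5 of the 6 fits that left out a library.

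The other regulators did not pass the test. SCAP, the sterol sensor that escorts the SREBPs, was at 90.3 and 85.7 CPM in NC, 72.5 and 65.7 CPM with si-circ235-1, and 90.6 and 77.6 CPM with si-circ235-2. INSIG2, the second retention protein, was at 14.8 and 17.8 CPM in NC, 15.5 and 17.6 CPM with si-circ235-1, and 10.2 and 12.2 CPM with si-circ235-2. With si-circ235-2, INSIG2 thus stood below the range of NC while INSIG1 stood above it, and INSIG2 had a log2 difference of -0.54 (SE 0.24, adjusted p = 0.11, edgeR). STARD4, a carrier of cholesterol in the cytosol, was at 41.3 and 43.9 CPM in NC and at 32.7 and 58.2 CPM with si-circ235-2, the widest ratio between replicates among the regulators.

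**Figure D2:**
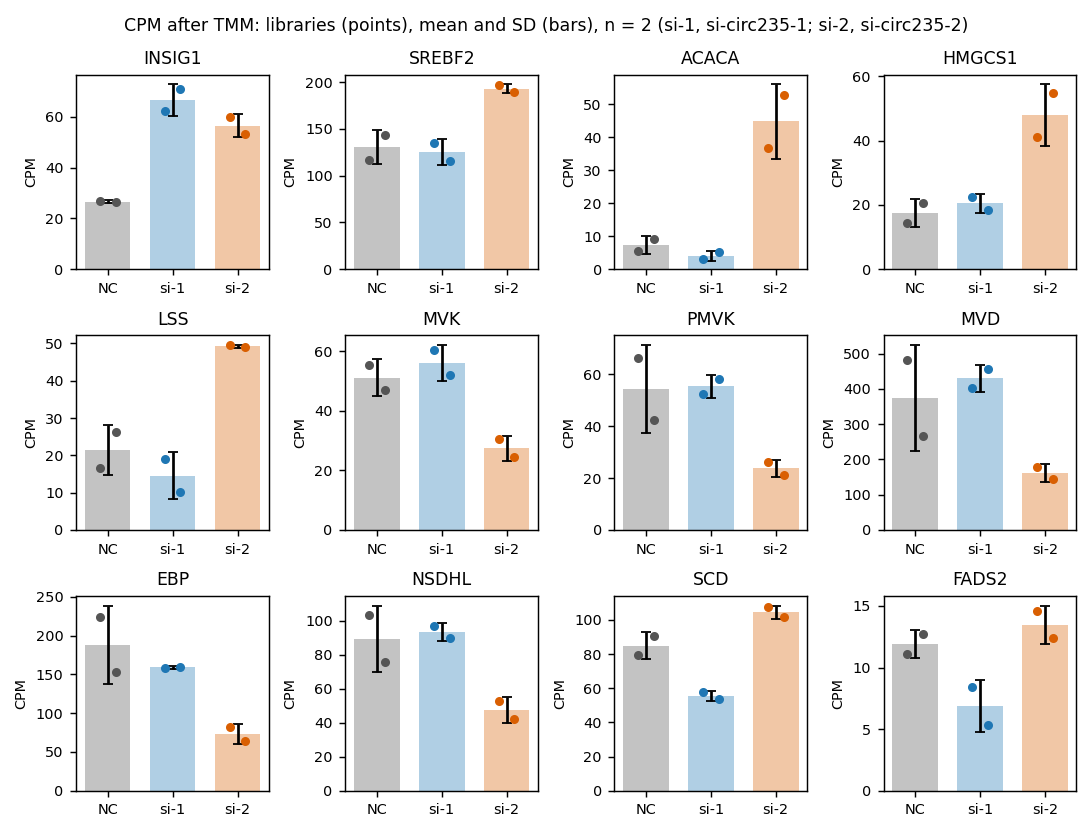
CPM of 12 members in every library, with a point for each library, a bar from 0 for the mean of each condition and an error bar for its SD (n = 2), where si-1 and si-2 stand for si-circ235-1 and si-circ235-2. INSIG1 is higher with both siRNAs, and ACACA rises from 5.44 and 9.17 CPM in NC to 36.9 and 52.9 CPM with si-circ235-2.

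In the steps from acetyl-CoA to squalene, 8 members, si-circ235-2 left 1 higher (12.5%) and 3 lower (37.5%). Of all genes tested, 15.7% were called in each direction. With si-circ235-1, edgeR and DESeq2 both called 0, and 0 had an unadjusted p under 0.05 (3644 of all 14415 genes tested). HMGCS1 (chr5:43289395-43313512, minus strand), the HMG-CoA synthase at the entry of the pathway, was at 14.3 and 20.6 CPM in NC, 22.5 and 18.4 CPM with si-circ235-1, and 41.1 and 54.8 CPM with si-circ235-2. The si-circ235-2 libraries stood clear of the other 4, and HMGCS1 rose 2.75-fold over NC (log2 1.46, SE 0.25, adjusted p = 0.0033, edgeR). The next 3 enzymes among the members, MVK, PMVK and MVD, went the other way.

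MVK, PMVK and MVD, which phosphorylate mevalonate in succession and then decarboxylate it, were lower with si-circ235-2 in both libraries. MVK was at 55.4 and 46.8 CPM in NC, 60.4 and 51.9 CPM with si-circ235-1, and 30.3 and 24.3 CPM with si-circ235-2. PMVK was at 66.4 and 42.2 CPM in NC, 52.3 and 58.4 CPM with si-circ235-1, and 26.1 and 21.4 CPM with si-circ235-2. MVD (chr16:88651935-88663161, minus strand) was at 481 and 267 CPM in NC, 402 and 456 CPM with si-circ235-1, and 178 and 144 CPM with si-circ235-2. In each of the 3 genes the si-circ235-2 libraries lay below the other 4. MVK fell by 0.90 on the log2 scale (SE 0.21, adjusted p = 0.0088, edgeR), PMVK by 1.20 (SE 0.24, adjusted p = 0.0054) and MVD by 1.22 (SE 0.27, adjusted p = 0.0078). NC replicate 1 was the higher NC library in all 3, and without it the differences were -0.78, -0.84 and -0.74 (adjusted p = 0.086, 0.070 and 0.085, edgeR) and were no longer called. Once a smooth length and GC trend was removed, MVD was at -0.55 (adjusted p = 0.062, edgeR) and was not called, PMVK was at -0.54 (adjusted p = 0.036) and MVK at -0.94 (adjusted p = 0.0043).

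The remaining isoprenoid genes, ACAT2, IDI1, FDPS and FDFT1, were not called against NC with either siRNA. Their log2 differences ran from -0.14 to 0.33 with si-circ235-1 and from -0.32 to 0.37 with si-circ235-2. FDFT1, the squalene synthase, and IDI1, the isopentenyl diphosphate isomerase, had both si-circ235-1 libraries above both NC libraries, at 156 and 148 CPM against 118 and 123 CPM for FDFT1, and at 48.9 and 52.7 CPM against 38.6 and 45.8 CPM for IDI1. These differences, 0.33 (SE 0.18) and 0.27 (SE 0.19), did not pass the test. Summed over the 8 genes, the level was 850 and 634 CPM in NC, 836 and 864 CPM with si-circ235-1, and 549 and 480 CPM with si-circ235-2, a sum in which MVD weighs most.

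In the steps from squalene to cholesterol, 10 members, si-circ235-2 left 1 higher (10%) and 3 lower (30%). Of all genes tested, 15.7% were called in each direction. With si-circ235-1, edgeR called 0, DESeq2 called 1, and 2 had an unadjusted p under 0.05 (3644 of all 14415 genes tested). LSS (chr21:46188141-46228824, minus strand), which closes squalene epoxide into lanosterol, was at 16.6 and 26.2 CPM in NC, 19.0 and 10.1 CPM with si-circ235-1, and 49.6 and 49.0 CPM with si-circ235-2. Its si-circ235-2 libraries were nearly equal and above the other 4, a rise of 2.30-fold (log2 1.20, SE 0.31, adjusted p = 0.014, edgeR). Without NC replicate 1 the difference was 0.91 (adjusted p = 0.15, edgeR) and not called.

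The lower genes of the sterol ring steps were EBP, TM7SF2 and NSDHL. EBP (chrX:48521158-48528716, plus strand), which shifts the sterol double bond, was at 224 and 152 CPM in NC, 158 and 160 CPM with si-circ235-1, and 82.4 and 64.0 CPM with si-circ235-2. It fell by 1.36 on the log2 scale (SE 0.22, adjusted p = 0.0029, edgeR), and it was the lower call that was kept without NC replicate 1 (-1.07, adjusted p = 0.034). NSDHL, a dehydrogenase of the demethylation steps, was at 103 and 75.8 CPM in NC, 97.2 and 89.7 CPM with si-circ235-1, and 53.0 and 42.0 CPM with si-circ235-2. TM7SF2, a sterol reductase, was at 28.7 and 15.4 CPM in NC, 12.2 and 14.3 CPM with si-circ235-1, and 8.97 and 7.84 CPM with si-circ235-2. All 3 had both si-circ235-2 libraries below the other 4. NSDHL fell by 0.92 (SE 0.21, adjusted p = 0.0091, edgeR) and TM7SF2 by 1.39 (SE 0.30, adjusted p = 0.0074). Without NC replicate 1 these were -0.68 (adjusted p = 0.099) and -0.88 (adjusted p = 0.099), and once the trend was removed TM7SF2 was at -0.64 (adjusted p = 0.070), none of them called by edgeR.

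SC5D, the desaturase of the sterol ring, was at 23.0 and 28.2 CPM in NC, 49.9 and 44.9 CPM with si-circ235-1, and 20.1 and 35.3 CPM with si-circ235-2. The si-circ235-1 libraries stood above the other 4, and the difference from NC was 0.89 (SE 0.27, adjusted p = 0.072, edgeR), short of the threshold, although DESeq2 called it (0.91, adjusted p = 0.025). CYP51A1 was at 0.33 and 0.86 CPM in NC, 0.35 and 0.11 CPM with si-circ235-1, and 1.48 and 2.10 CPM with si-circ235-2, with a difference from NC of 1.58 (SE 0.62, adjusted p = 0.077, edgeR) in the second case. SQLE, MSMO1, HSD17B7 and DHCR7 were not called, with log2 differences of -0.31 to 0.34 with si-circ235-1 and -0.15 to 0.42 with si-circ235-2. The highest of these was SQLE, the squalene epoxidase, at 67.0 and 62.9 CPM with si-circ235-2 against 47.0 and 50.1 CPM in NC (log2 0.42, SE 0.19, adjusted p = 0.11, edgeR).

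Of the 7 genes of acetyl-CoA supply, fatty acid synthesis, elongation and phosphatidate handling, si-circ235-2 left 4 higher (57.1%) and 0 lower. Of all genes tested, 15.7% were called in each direction. In this group 1 was lower at an unadjusted p under 0.05 and 0 by DESeq2. With si-circ235-1, edgeR called 0, DESeq2 called 1, and 3 had an unadjusted p under 0.05 (3644 of all 14415 genes tested). ACACA (chr17:37084988-37406818, minus strand), the acetyl-CoA carboxylase that commits carbon to fatty acids, had the largest fold change of the 34 members, with 5.44 and 9.17 CPM in NC, 2.94 and 5.14 CPM with si-circ235-1, and 36.9 and 52.9 CPM with si-circ235-2. The rise with si-circ235-2 was 6.13-fold (log2 2.62, SE 0.34, adjusted p = 0.0018, edgeR), and with si-circ235-1 the log2 difference was -0.85 (SE 0.35, adjusted p = 0.16). Once a smooth length and GC trend was removed, the si-circ235-2 value was 1.84 (adjusted p = 0.0048, edgeR).

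FASN, the fatty acid synthase that uses the product of ACACA, did not follow it. FASN was at 372 and 335 CPM in NC, 284 and 220 CPM with si-circ235-1, and 268 and 254 CPM with si-circ235-2, so that all siRNA libraries lay below both NC libraries. The log2 differences of -0.49 (SE 0.20, adjusted p = 0.15) and -0.44 (SE 0.20, adjusted p = 0.11) did not pass the test (edgeR). Despite its rise, ACACA per kilobase was still lower with si-circ235-2 (4.51 CPM per kb) than FASN (30.5 CPM per kb).

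ACLY, the citrate lyase, was at 121 and 156 CPM in NC, 154 and 153 CPM with si-circ235-1, and 212 and 221 CPM with si-circ235-2 (log2 0.64 over NC, SE 0.19, adjusted p = 0.025, edgeR). ELOVL5, an elongase of polyunsaturated fatty acids, was at 85.5 and 92.0 CPM in NC, 91.8 and 89.5 CPM with si-circ235-1, and 126 and 127 CPM with si-circ235-2 (log2 0.51, SE 0.17, adjusted p = 0.041, edgeR). In both genes the si-circ235-2 libraries lay above the other 4. The ELOVL5 call was lost in all 6 fits that left out a library, with no low-count filter and with the 2 conditions alone. LPIN1, a phosphatidate phosphatase of glycerolipid synthesis, was at 20.9 and 26.5 CPM in NC, 33.8 and 41.9 CPM with si-circ235-1, and 53.9 and 48.8 CPM with si-circ235-2, and its 3 conditions did not overlap. Its rise was 1.11 with si-circ235-2 (SE 0.21, adjusted p = 0.0045, edgeR), and with si-circ235-1 the difference was 0.67 (SE 0.21, adjusted p = 0.082). Without NC replicate 1, ACLY (0.47, adjusted p = 0.20), ELOVL5 (0.45, adjusted p = 0.20), LPIN1 (0.95, adjusted p = 0.062) and SREBF2 (0.43, adjusted p = 0.25) were not called by edgeR. Once a smooth length and GC trend was removed, ACLY (0.29, adjusted p = 0.16), LPIN1 (0.46, adjusted p = 0.072) and SREBF2 (0.33, adjusted p = 0.11) were not called.

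ACSS2, which makes acetyl-CoA from acetate, and ELOVL6, which elongates saturated chains, were not called with either siRNA. ACSS2 lay at 77.7 to 103 CPM and ELOVL6 at 4.24 to 8.89 CPM over the 6 libraries.

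No desaturase was called against NC with either siRNA by edgeR. At an unadjusted p under 0.05 there were 2 of the 3 with si-circ235-1 and 0 with si-circ235-2. Of all 14415 genes tested, 3644 and 6212 passed at that level. SCD, which makes oleate from stearate, was at 79.4 and 90.4 CPM in NC, 57.6 and 53.6 CPM with si-circ235-1, and 107 and 102 CPM with si-circ235-2. The 3 conditions did not overlap, with si-circ235-1 lowest and si-circ235-2 highest. The differences from NC were -0.61 with si-circ235-1 (SE 0.18, adjusted p = 0.065, edgeR) and 0.30 with si-circ235-2 (SE 0.17, adjusted p = 0.21), while DESeq2 called SCD lower with si-circ235-1 (-0.59, adjusted p = 0.031). FADS2, the first desaturase of polyunsaturated fatty acids, was at 11.1 and 12.7 CPM in NC, 8.39 and 5.36 CPM with si-circ235-1, and 14.6 and 12.4 CPM with si-circ235-2. FADS1, its neighbour on chromosome 11, ran from 81.9 to 110 CPM over all libraries.

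**Figure D3:**
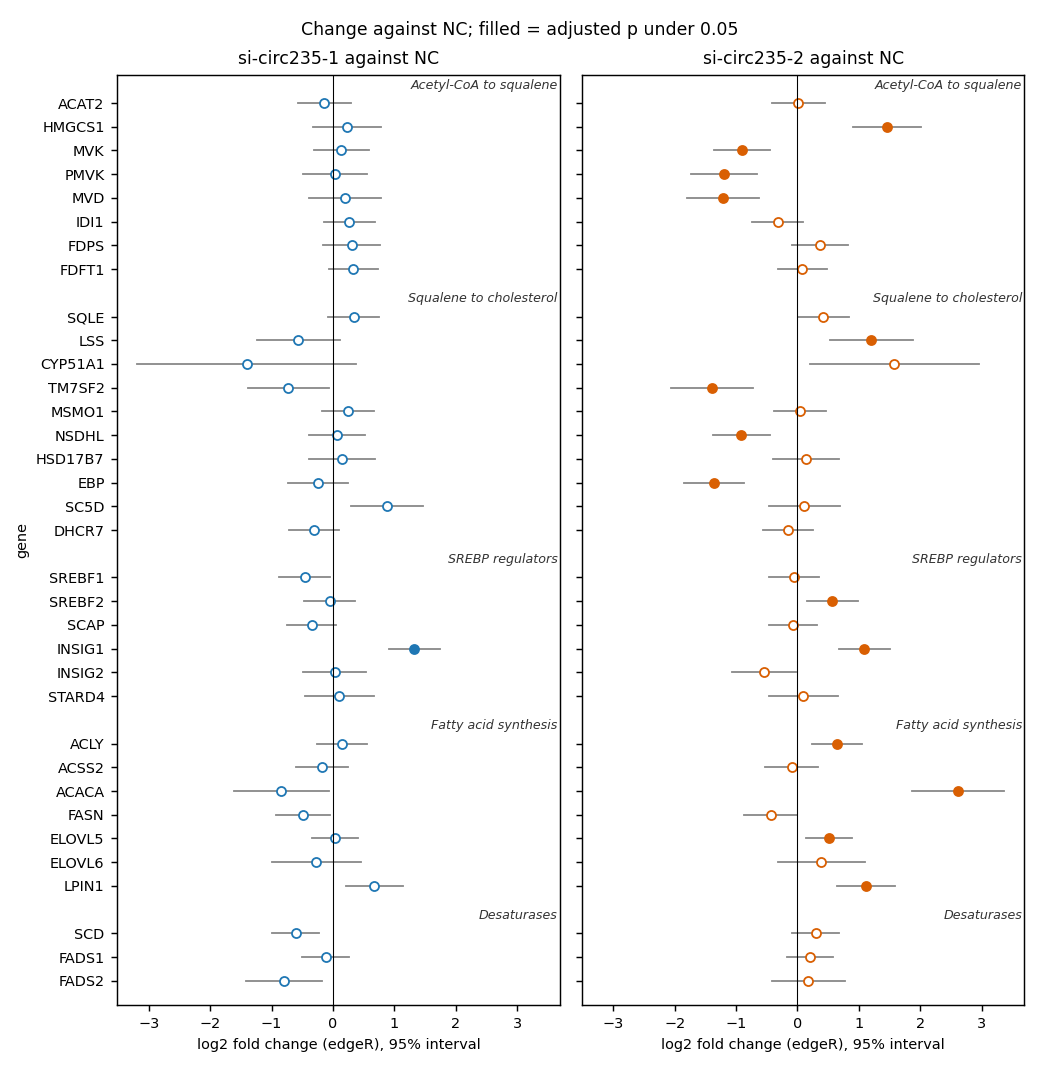
Log2 fold changes against NC with 95% intervals from edgeR for the 34 members, with si-circ235-1 and si-circ235-2 side by side and filled points where the gene was called. With si-circ235-2 the called members run from -1.39 (TM7SF2) to 2.62 (ACACA), and with si-circ235-1 INSIG1, at 1.33, is the called member.

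Directly compared, the siRNAs differed in 15 of the 34 members: 8 were higher with si-circ235-2 than with si-circ235-1 (23.5%, against 21.1% of all genes tested) and 7 lower (20.6%, against 18.6%). ACACA differed most, by 3.46 on the log2 scale (SE 0.36, adjusted p = 0.00039, edgeR). LSS was 3.40-fold higher (log2 1.77, SE 0.31, adjusted p = 0.0018, edgeR), HMGCS1 2.35-fold (1.23, SE 0.25, adjusted p = 0.0035), SCD 1.88-fold (0.91, SE 0.18, adjusted p = 0.0028) and FADS2 1.97-fold (0.97, SE 0.28, adjusted p = 0.018). SCD and FADS2 thus separated between the siRNAs although neither was called against NC. They were not called once the length and GC trend was removed. The FADS2 call was also lost without si-circ235-1 replicate 2. CYP51A1 also differed, by 2.98 (SE 0.72, adjusted p = 0.0084, edgeR), on the few counts given above.

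The lower members with si-circ235-2 than with si-circ235-1 were MVD (-1.42, SE 0.27), PMVK (-1.22, SE 0.24), EBP (-1.12, SE 0.22), MVK (-1.04, SE 0.21), NSDHL (-0.98, SE 0.21), SC5D (-0.77, SE 0.26) and IDI1 (-0.59, SE 0.19). The SC5D call was lost with the length and GC trend removed, without TMM factors and with the 2 conditions alone. It was also lost without si-circ235-1 replicate 1, si-circ235-1 replicate 2 or si-circ235-2 replicate 1. The IDI1 call was lost without TMM factors and in each fit that left out a library of either siRNA. All 7 fatty acid synthesis genes had a positive difference, 2 of them called, from 0.05 (FASN) to 3.46 (ACACA), but ACLY (-0.014), LPIN1 (-0.23), ACSS2 (-0.13) and FASN (-0.15) stood below 0 once the length and GC trend was removed. Among the desaturases FADS1 did so too (-0.24), and none of these was called.

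Transcript length moved with these differences. With si-circ235-2, the 8 higher members had a median length of 4637.5 bases for the longest transcript and a median GC content of 48.1%, and the 6 lower members 2011.5 bases and 58.9%. Over all genes tested the higher ones were also longer, at 5364 bases (GC 46.4%), and the lower ones shorter, at 2058.5 bases (GC 57.1%). Spearman's rho of the si-circ235-2 log2 fold change with length was 0.44 across 14386 genes and 0.49 across the 34 members, where genes of the same libraries are not independent. With si-circ235-1 it was 0.04 and -0.40. Against GC content, rho across all genes and across the members was -0.26 and -0.43 with si-circ235-1, and -0.22 and -0.40 with si-circ235-2. Of all genes called with si-circ235-1, the higher ones had a median GC content of 44.8% and the lower ones 57.2%. With a smooth trend over both removed from each library, si-circ235-2 left 6 members higher (HMGCS1, LSS, INSIG1, ACACA, ELOVL5 and FDPS) and 4 lower (MVK, PMVK, NSDHL and EBP). Of all 14415 genes tested, 1615 were then higher and 2113 lower. FDPS, the farnesyl diphosphate synthase, was gained at 0.69 (adjusted p = 0.018, edgeR), from 0.37 without the removal (adjusted p = 0.19). With si-circ235-1, SC5D (0.84, adjusted p = 0.028) and LPIN1 (0.69, adjusted p = 0.030) were then called higher beside INSIG1 (1.36, adjusted p = 0.0025), and SCD lower (-0.60, adjusted p = 0.015). The part of library composition in the members' values was not tested beyond this.

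**Figure D4:**
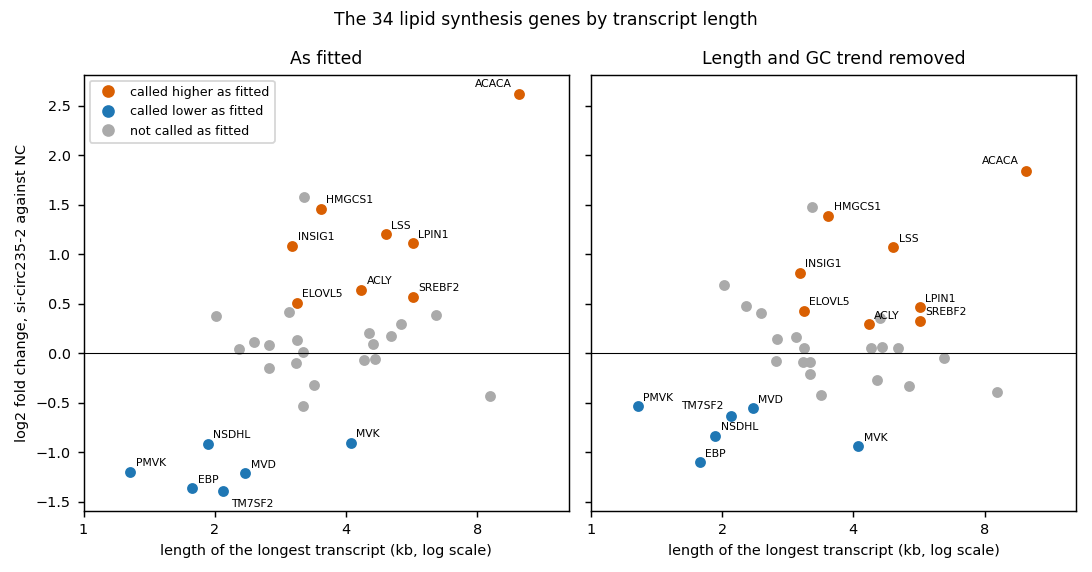
Log2 fold change of si-circ235-2 against NC for the 34 members by the length of the longest transcript in kb (log axis), as fitted on the left and after removal of the length and GC trend on the right, coloured by the call as fitted. PMVK, EBP, TM7SF2, NSDHL and MVD sit among the short transcripts on the left and move toward 0 on the right, while HMGCS1, at 1.46 and 1.39, hardly moves.

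A further 52 genes of lipid handling were taken from 4 lists, and 51 of them were tested (ABCG1 did not pass the filter). With si-circ235-1, 1 was higher (ELOVL4, 0.95, adjusted p = 0.0498, edgeR) and 1 lower (LPIN3, -1.32, adjusted p = 0.026). Each was 1.92% of the 52, against 2.24% higher and 3.64% lower of all genes tested. With si-circ235-2, 13 were higher (25% of the 52, against 15.7% of all genes tested) and 7 lower (13.5%, against 15.7%). The 13 higher ones had a median length of 4539 bases and the 7 lower ones 1950 bases, the direction seen over all genes tested. Values of these lists with the length and GC trend removed were not examined.

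Among 12 further genes of sterol and SREBP handling, si-circ235-2 left 4 higher (33.3%) and 0 lower, with 0 lower also at an unadjusted p under 0.05. Of all genes tested, 15.7% were called in each direction. They included ERLIN2, which acts in sterol-driven degradation in the endoplasmic reticulum (1.36, adjusted p = 0.0027, edgeR), RNF145, a ubiquitin ligase (0.66, adjusted p = 0.021), and MBTPS1, the Golgi protease that makes the first cut in the SREBPs (0.65, adjusted p = 0.023). Of 7 tested genes of sterol export, storage and lysosomal transport, 3 were higher and 2 lower (37.5% and 25% of the 8 listed). Of the lysosomal cholesterol transporters, NPC1 (5157 bases) rose by 1.83 (adjusted p = 0.0018, edgeR) and NPC2 (1436 bases) fell by 0.90 (adjusted p = 0.017). ABCA1, the cholesterol exporter, rose by 1.30 (adjusted p = 0.028).

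Of 20 other genes of fatty acid synthesis and activation, si-circ235-2 left 4 higher (20%) and 3 lower (15%), against 15.7% of all genes tested in each direction. The 3 lower ones changed most: MCAT, of mitochondrial fatty acid synthesis (-1.52, adjusted p = 0.0021, edgeR), TECR, the reductase of the elongation cycle (-1.45, adjusted p = 0.0027), and SLC25A1, which exports the citrate that ACLY cleaves (-1.39, adjusted p = 0.0032). SLC25A1 (1648 bases, GC 65.6%) and ACLY (4339 bases, GC 52.2%), adjoining steps of acetyl-CoA supply, thus differed in direction as fitted. ACLY was not called once the length and GC trend was removed, and SLC25A1 was not examined with the trend removed. Of 12 genes of fatty acid oxidation, 2 were higher and 2 lower (16.7% each), near the share of all genes. The 3 largest were ACADS, a short-chain dehydrogenase (-1.21, adjusted p = 0.0064, edgeR), and the carnitine transferases CPT1A (1.09, adjusted p = 0.0039) and CPT2 (1.08, adjusted p = 0.044). CPT1A, the entry step of oxidation, and ACACA, whose product is known to inhibit its enzyme, were thus both higher with si-circ235-2.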

How the data were processed

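RNA from T24 cells was sequenced by the authors in 6 libraries. The authors deposited raw, whole-number counts per gene from reads without strand information. The submitters' processing notes name FastQC, cutadapt, STAR and hg38, without versions. No counting tool, annotation or filter is given in the sources used here.

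Genes were tested with edgeR 4.0.16 in R 4.3.3 (quasi-likelihood test after TMM and filterByExpr by condition, 3 conditions in 1 fit with 3 residual degrees of freedom, Benjamini-Hochberg adjustment over 14415 genes, threshold 0.05). The script was tested on simulated data in which 200 genes were changed. At a log2 change of 1 it called 21.4% of the changed genes tested for si-circ235-1 against NC. For si-circ235-2 against NC it called 29.6%, and between the siRNAs 26.8%. At a log2 change of 2 these were 88.7%, 88.3% and 88.4%. A gene not called can therefore still have changed. CPM used TMM-scaled totals, SE came from the fold change and its F value, and levels per kb and lengths used the longest transcript of GENCODE release 29 (GRCh38). Symbols were found for 98.7% of identifiers and GENCODE entries for 99.5%.

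Members and lists were chosen with earlier results of these data known. All 34 members are accounted for: those called against NC and the SREBP regulators by library, others by ranges, and of the other lists at most the 3 largest called genes per list. 1 gene of the marker lists is not reported here. Alternatives were DESeq2 1.42.0, library totals alone, no filter, the 2 conditions alone, a replicate block, removal of a trend over length and GC content (splines, 5 degrees of freedom), and each library left out.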

Additional observations from a re-analysis of the deposited data

Results flagged for a closer look

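The following 15 members differed between the siRNAs in the direct test of si-circ235-2 against si-circ235-1 (edgeR, adjusted p under 0.05), which tests the difference between their effects on the same NC. In log2 units, si-circ235-2 was higher for ACACA (3.46), CYP51A1 (2.98), LSS (1.77), HMGCS1 (1.23), FADS2 (0.97), SCD (0.91), SREBF2 (0.62) and ELOVL5 (0.48). It was lower for MVD (-1.42), PMVK (-1.22), EBP (-1.12), MVK (-1.04), NSDHL (-0.98), SC5D (-0.77) and IDI1 (-0.59). The calls of CYP51A1, FADS2, SCD, SREBF2, ELOVL5, SC5D and IDI1 were each lost under at least 1 alternative fit, while the others were kept. In all 15 the libraries of the siRNAs did not overlap in CPM, but this also held for members that were not called. Of the 34 members, 14 were higher and 11 lower with si-circ235-2 in every library. The share over all genes was not counted, so the lack of overlap adds no support to the calls. Groups of 2 libraries were too small for a test of outlying samples.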

How the results depend on the processing

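With 2 libraries per condition, the spread between replicates limits these results more than depth does, and single libraries decide many calls. Of 30 member calls in the 3 comparisons, none changed sign under any alternative and 18 were lost under at least 1 of them. Without NC replicate 1, 10 of the 14 calls of si-circ235-2 against NC were lost.

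For si-circ235-1 against NC, members called higher numbered 3 with DESeq2, 2 without the filter, 3 with the 2 conditions alone and 3 once a length and GC trend was removed, against 1, and 0 to 2 with a library left out. Members called lower numbered 1 with DESeq2 and 1 with the trend removed, against 0. All genes called numbered 1519, 1678, 1642 and 1969 under these 4 settings, against 847, and 0 to 1482 with a library left out (0 without si-circ235-1 replicate 2, with 2110 at an unadjusted p under 0.05). Left-out libraries gave 3 to 7 members higher and 1 to 6 lower with si-circ235-2 (769 to 4240 genes in all), and 4 to 9 higher and 5 to 7 lower between the siRNAs (2817 to 5558 genes). Between the siRNAs, 14 members were higher and 5 lower without TMM factors, and 5 higher and 8 lower with the trend removed.

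The members' median was -0.059, 0.37 and 0.42 without TMM factors (si-circ235-1 and si-circ235-2 against NC, then the siRNAs against each other), where the median of all genes was -0.11, 0.25 and 0.37. Between the siRNAs it was 0.047 with DESeq2, 0.10 with the 2 conditions alone and -0.074 with the trend removed. With a library left out the medians ran from -0.063 to 0.039, 0.045 to 0.18 and 0.040 to 0.27. Without TMM factors, 179 genes were higher and 529 lower with si-circ235-1, 3173 and 1294 with si-circ235-2, and 4534 and 1496 between the siRNAs, against 323 and 524, 2270 and 2260, and 3047 and 2678; with the trend removed, 1189 and 780 with si-circ235-1, 1615 and 2113 with si-circ235-2, and 2477 and 3346 between the siRNAs. Of the member differences called under at least 1 setting, those between the siRNAs changed sign for FDFT1 (0.080) and INSIG1 (0.096) without TMM factors and for ACLY (-0.014), LPIN1 (-0.23) and FADS1 (-0.24) with the trend removed. Of 58 called under none, 34 changed sign in some setting. The cause of these changes was not tested.

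Same-numbered libraries deviated together with correlations of -0.09, 0.15 and 0.14, so the numbers were not taken to pair them. With the replicate block, 1, 8 and 9 members were called higher and 0, 6 and 7 lower in the 3 comparisons, and the added call was ACLY between the siRNAs (0.49, adjusted p = 0.040, edgeR).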
